A study of Homo sapiens with 8 samples.

Results

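H1 human embryonic stem cells carrying a doxycycline-inducible hairpin against EXOSC3 (shEXOSC3) were compared with and without 5 days of doxycycline, in 1 library of total RNA each. These are 2 of the 8 libraries of the series. The same line was also measured on day 7, and a line with a non-silencing hairpin (shNS) was measured with and without doxycycline on both days, again with 1 library per group. All cells were grown feeder-free on Matrigel in medium with fibroblast growth factor 2 and puromycin, at 5% oxygen. Genes were taken from the table of the day 5 shEXOSC3 pair, as FPKM (fragments scaled to transcript length and library size) summed over the RefSeq accessions of a symbol. Of 25554 symbols, 12751 had a mean of at least 1 FPKM over the 2 libraries, and 12482 of these were long genes, which lie at loci of at least 300 bp and are not short RNAs.

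The RNA exosome is a ring-shaped complex that degrades and trims RNA from its 3′ end in the nucleus and the cytoplasm. EXOSC3 is one of the RNA-binding cap proteins of the ring, and the catalytic subunits DIS3 and EXOSC10 attach to it. In human cells the nuclear complex is known for removing short-lived noncoding RNAs, among them transcripts that start upstream of active promoters and run away from the gene, and for trimming the 3′ ends of small nucleolar RNAs.

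Every comparison here sets 1 library against 1 library, so no difference has a replicate check and none was tested. Values are FPKM. The log2 ratio is that of FPKM + 1 with doxycycline over FPKM + 1 without, which understates differences of low genes, and at least 2-fold means a log2 ratio of at least 1 in size. The spacing of low FPKM put both shEXOSC3 libraries at about 15800000 fragments, against about 33600000 for shNS with doxycycline and 21200000 for shNS without. Ratios in shNS therefore carry less counting error. The 3 most abundant entries took 23.8% of all FPKM in shEXOSC3 with doxycycline and 26.1% without, against 26.7% with and 27.6% without in shNS. All 8 embryonic stem cell markers were above 1 FPKM, with a summed level of 1699 FPKM in shEXOSC3 with doxycycline and 2220 FPKM without, against 1852 FPKM with and 2138 FPKM without in shNS. Of 7 fibroblast markers 3 reached 1 FPKM, and 2 were at 0 in each shEXOSC3 library. In shEXOSC3 the 7 summed to 134 FPKM with doxycycline and 98.2 FPKM without. In shNS they summed to 105 FPKM with and 97.0 FPKM without. Most of the shEXOSC3 sum was THY1 alone, at 107 FPKM with doxycycline and 82.0 FPKM without. Whether the THY1 RNA came from fibroblasts or from the stem cells was not tested, so the sum is not a measure of fibroblasts. In total RNA of a culture, fewer cells of a type and less RNA per cell cannot be told apart.

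EXOSC3 RNA was at 11.3 FPKM in shEXOSC3 with doxycycline and 25.2 FPKM without, and at 27.8 FPKM in shNS with doxycycline and 27.3 FPKM without. The induced library was the only low one among these 4, with 45.0% of its uninduced partner against 102% in shNS. The log2 ratio was -1.09 in shEXOSC3 and 0.03 in shNS. On day 7 EXOSC3 was at 12.3 FPKM with doxycycline and 25.2 FPKM without in shEXOSC3, or 48.9%. The locus given for EXOSC3 is chr9:37779711-37785089 on hg19. Its accession NM_016042 was at 7.54 FPKM with doxycycline and 24.5 FPKM without, while NM_001002269 was at 3.77 FPKM with doxycycline and 0.627 FPKM without. The deeper reduction of NM_016042, to 30.7%, depends on how shared reads were divided between the 2 accessions.

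The other 13 subunits and associated proteins of the exosome were all within 2-fold. Of the 14 genes, EXOSC3 included, 3 had a ratio above 0 and 11 below, with a median of -0.15. In shNS 11 were above 0 and 3 below, with a median of 0.11. Most of the 14 had a mean of 20 to 100 FPKM. Of all coding genes of that level, 36.9% were above 0 in shEXOSC3. Their median was -0.07 in shEXOSC3 and 0.04 in shNS, and the part of level was not tested. EXOSC6, a subunit of the ring, had the highest ratio of the 14. It was at 17.7 FPKM in shEXOSC3 with doxycycline and 12.2 FPKM without, against 15.4 FPKM with and 13.3 FPKM without in shNS. Its log2 ratio was 0.51 on day 5 and 0.64 on day 7 in shEXOSC3. DIS3, the main nuclease, was at 17.9 FPKM with doxycycline and 22.7 FPKM without in shEXOSC3, against 20.9 FPKM with and 20.2 FPKM without in shNS. EXOSC10, the nuclear nuclease, was level, at 37.3 FPKM with doxycycline and 37.5 FPKM without. C1D and MPHOSPH6, nuclear proteins that bind the complex, both lay below 0 in shEXOSC3, C1D at -0.35 against 0.12 in shNS and MPHOSPH6 at -0.33 against -0.07.

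**Figure D1:**
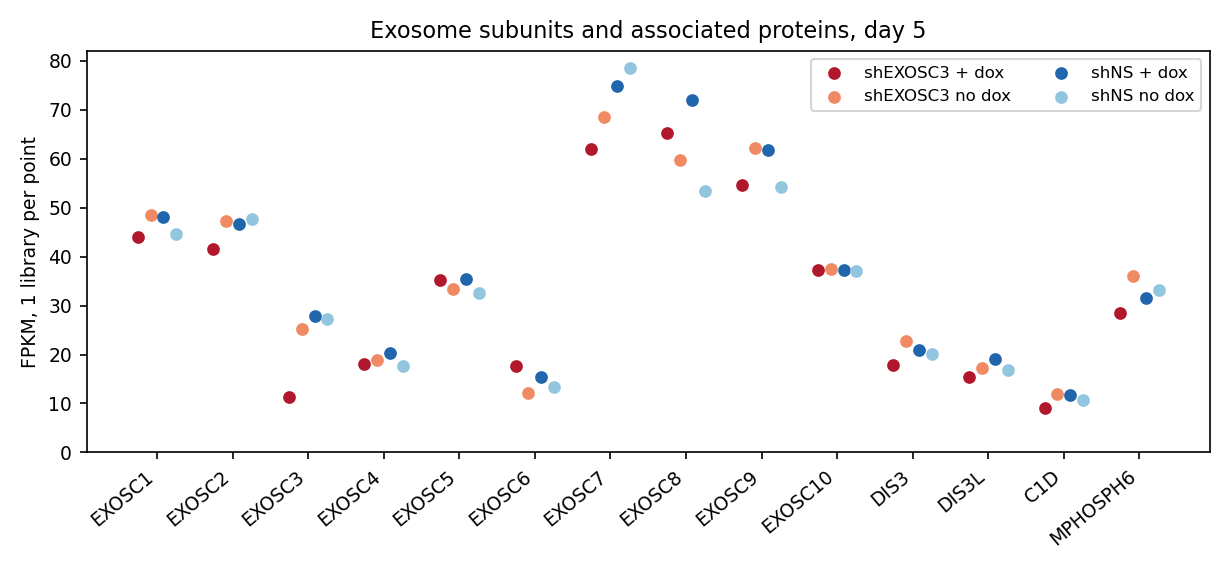
FPKM of 14 exosome subunits and associated proteins on day 5, 1 point per library, in shEXOSC3 and shNS with and without doxycycline. EXOSC3 stands apart in induced shEXOSC3 cells at 11.3 FPKM, against 25.2 FPKM without doxycycline, and EXOSC6 is the highest by ratio, at 17.7 FPKM with and 12.2 FPKM without.

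Of 13 exosome cofactors, 0 were at least 2-fold different, 5 were above 0 and 8 below, with a median of -0.14 in shEXOSC3 and -0.02 in shNS. The genes at the top were TENT4A, a noncanonical poly(A) polymerase, and ZFC3H1 and ZCCHC8, which link the exosome to nuclear polyadenylated and promoter-upstream RNA. ZFC3H1 was at 8.44 FPKM in shEXOSC3 with doxycycline and 5.35 FPKM without, against 4.98 FPKM with and 7.1 FPKM without in shNS. On day 7 its log2 ratio in shEXOSC3 was 1.13. ZCCHC7, a zinc-knuckle protein of the nucleolar cofactor complex, was at the bottom, at 17.4 FPKM with doxycycline and 24.7 FPKM without. The helicase MTREX, shared by the nuclear cofactor complexes, was at 57.4 FPKM with doxycycline and 64.4 FPKM without. Of 35 measured genes of other RNA decay pathways, 19 were above 0 and 16 below, with 0 at least 2-fold different.

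Across the long genes, 78 (0.625%) were 2-fold or more higher in shEXOSC3 with doxycycline than without, and 45 (0.361%) were lower by as much. In shNS 15 (0.12%) were higher and 13 (0.104%) lower. Among genes with at least 100 estimated fragments, 41 were higher and 25 lower in shEXOSC3, or 0.647% in either direction, against 7 and 4, or 0.108%, in shNS. The median ratio of all long genes was 0.001, 50.2% were above 0 and 49.8% below. Scaling each library to its total FPKM without the 3 most abundant genes moved that median to 0.117 and gave 114 higher and 33 lower genes, so that 77.6% of the genes past 2-fold were higher, against 63.4% as deposited. On day 7, in separate libraries of the same line, 68 of the 78 higher genes had a ratio above 0 (87.2%, against 48.4% of all long genes), and 18 were again at least 2-fold higher. Of the 45 lower genes, 38 were below 0 on day 7 (84.4%, against 51.5%), and 10 were again at least 2-fold lower. In shNS on day 5, 61 of the 78 were above 0, against 53.3% of all long genes, and 38 of the 45 below 0, against 46.7%. In the authors' deposited table no accession of the day 5 shEXOSC3 pair had a q-value under 0.0926, and 1018 of 22216 tested (4.58%) had a p-value under 0.05, against 1024 of 24575 (4.17%) in shNS.

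**Figure D2:**
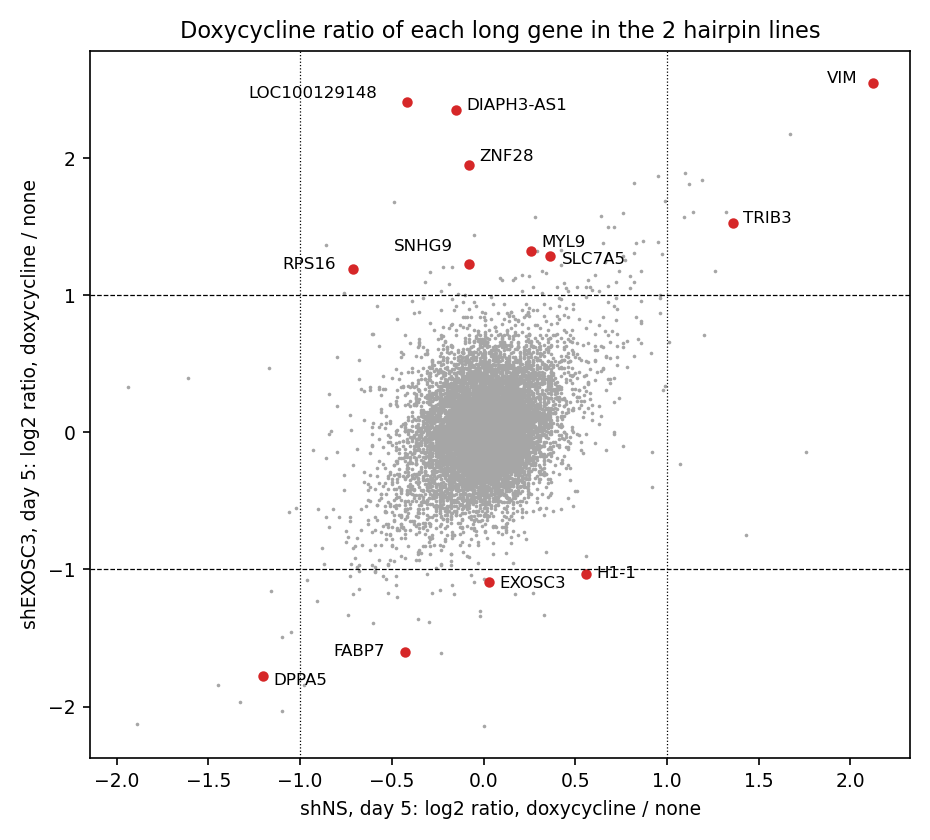
Log2 ratio of doxycycline over none on day 5 for each of 12482 long genes, with shEXOSC3 on the vertical axis and shNS on the horizontal axis. Dashed and dotted lines mark 2-fold, and VIM, TRIB3 and DPPA5 lie past 2-fold in both lines, while EXOSC3, SNHG9 and DIAPH3-AS1 lie near 0 in shNS.

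Long noncoding genes made up more of the higher genes than of the table. With doxycycline in shEXOSC3, 22 of 716 noncoding long genes (3.07%) and 56 of 11766 protein-coding genes (0.476%) passed 2-fold on the higher side. On the lower side it was 6 noncoding (0.838%) and 39 coding genes (0.331%). Among the 3371 coding genes with a mean of 1 to 5 FPKM, 30 were at least 2-fold higher and 20 lower, and the part of level in the noncoding counts was not tested. Most ratios also lay above 0 in each of 3 classes taken by name. Of 204 antisense genes, 140 were above 0, 8 passed 2-fold on the higher side and 1 on the lower side, and the median was 0.20 in shEXOSC3 and -0.02 in shNS. Of 64 divergent transcripts, whose symbols end in -DT, 46 were above 0 and 3 at least 2-fold higher, the median being 0.19 in shEXOSC3 and -0.01 in shNS. Of 80 LINC genes, intergenic noncoding RNAs, 51 were above 0, with 2 at least 2-fold higher and 1 lower, and the median was 0.22 in shEXOSC3 and -0.04 in shNS. On day 7 the medians in shEXOSC3 were 0.35, 0.38 and 0.28 for the antisense, divergent and LINC classes.

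Most of these RNAs are scarce, and coding genes of like level lay above 0 by less: among 3371 coding genes with a mean of 1 to 5 FPKM the median was 0.07, and 59.2% were above 0. With a minimum of 5 FPKM the class medians were 0.067 for antisense, 0.10 for divergent and 0.012 for LINC genes. With at least 100 estimated fragments they were 0.10, 0.17 and 0.23. Set against induced shNS cells, across separately made tables, induced shEXOSC3 cells had class medians of 0.18 for antisense, 0.17 for divergent and 0.20 for LINC genes. The labels and file headers do not state the strand setting of the counting, so reads of an antisense RNA and of a gene overlapping it cannot be told apart.

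Noncoding genes that start near the start of a coding gene on the opposite strand were followed further. Of 499 measured long noncoding RNAs, 375 had a start in the RefSeq table of promoters (GRCh38.p14). For 189 the nearest coding gene start on the opposite strand was within 1000 bp. The side on which that start lay was not checked, so the group, here called head-to-head, can include starts inside the coding gene. In this head-to-head group 134 were above 0 in shEXOSC3, against 92 in shNS, and 6 were at least 2-fold higher and 0 lower. The median was 0.22 in shEXOSC3 and -0.01 in shNS, and 0.39 in shEXOSC3 on day 7. The other 186, whose nearest such start was farther away, had a median of 0.17 in shEXOSC3 and -0.02 in shNS, with 6 at least 2-fold higher and 2 lower. The coding neighbours of the head-to-head group were centred on 0: of 176, 92 were above 0 and 0 were past 2-fold, with a median of 0.02.

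Of the 6 head-to-head genes that were at least 2-fold higher, the promoter windows of 3 are shown. These 3 were chosen after the windows and values were seen. They run from 250 bases before to 50 after the RefSeq start, 5′ to 3′ on the minus strand of GRCh38.p14. NIPBL-DT lies at chr5:36876645-36876944, ZNF143-AS1 at chr11:9460649-9460948 and DPY19L3-DT at chr19:32405490-32405789. Capitals mark CCAAT or its complement ATTGG, and GGGCGG or its complement CCGCCC, and no marked runs overlap.
NIPBL-DT: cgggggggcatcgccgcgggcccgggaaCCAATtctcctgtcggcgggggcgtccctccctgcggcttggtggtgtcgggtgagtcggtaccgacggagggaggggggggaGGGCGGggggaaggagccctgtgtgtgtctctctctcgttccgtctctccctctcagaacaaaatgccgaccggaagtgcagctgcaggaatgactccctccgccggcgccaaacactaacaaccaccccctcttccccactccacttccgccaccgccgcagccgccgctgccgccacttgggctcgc
ZNF143-AS1: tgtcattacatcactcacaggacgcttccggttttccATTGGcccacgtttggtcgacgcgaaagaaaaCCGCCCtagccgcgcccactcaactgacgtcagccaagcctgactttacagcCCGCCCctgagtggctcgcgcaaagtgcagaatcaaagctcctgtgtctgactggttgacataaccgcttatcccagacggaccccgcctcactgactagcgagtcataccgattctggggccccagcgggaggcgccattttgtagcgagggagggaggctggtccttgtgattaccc
DPY19L3-DT: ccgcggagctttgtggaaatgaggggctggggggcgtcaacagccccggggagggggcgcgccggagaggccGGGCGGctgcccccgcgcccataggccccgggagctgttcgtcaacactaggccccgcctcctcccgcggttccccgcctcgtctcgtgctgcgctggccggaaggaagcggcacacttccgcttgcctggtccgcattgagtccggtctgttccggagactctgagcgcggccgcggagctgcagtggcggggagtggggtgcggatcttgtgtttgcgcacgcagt
CCAAT, on either strand, is in 34.6% of all 35116 windows of this length and in 32.4% of the 225 windows of head-to-head genes. GGGCGG, on either strand, is in 45.0% of all windows and in 70.7% of the head-to-head windows, whose median GC content is 68.3% against 58.7%. TATAAA, also searched on both strands, is in 11.5% of all windows, 4.0% of the head-to-head windows and 0 of the 3 printed. Of the other 3 genes, ZEB1-AS1 and ZNF649-AS1 have 1 GGGCGG each in their windows and 0 of the others, and DIAPH3-AS1 has 0 of the motifs and a GC content of 43.7%.

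NIPBL-DT starts 75 bp from NIPBL, which encodes the cohesin loader. It was at 7.89 FPKM in shEXOSC3 with doxycycline and 3.37 FPKM without, against 4.24 FPKM with and 3.54 FPKM without in shNS. NIPBL itself was at 14.8 FPKM with doxycycline and 14.7 FPKM without. Only the noncoding partner stood out in the induced library, with log2 ratios of 1.03 on day 5 and 1.40 on day 7 in shEXOSC3 and 0.21 on day 5 in shNS.

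ZNF143-AS1 starts 314 bp from ZNF143, a transcription factor of many small RNA gene promoters. It was at 6.46 FPKM in shEXOSC3 with doxycycline and 2.7 FPKM without, against 3.94 FPKM with and 4.43 FPKM without in shNS. The coding neighbour ran the other way in shEXOSC3, at 20.1 FPKM with doxycycline and 26.7 FPKM without. The log2 ratio of ZNF143-AS1 was 1.01 on day 5 and 1.63 on day 7 in shEXOSC3, and -0.14 in shNS on day 5.

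DPY19L3-DT starts 231 bp from DPY19L3, which encodes a C-mannosyltransferase. It was at 4.21 FPKM in shEXOSC3 with doxycycline and 1.39 FPKM without, against 2.74 FPKM with and 2.52 FPKM without in shNS. DPY19L3 was at 14 FPKM with doxycycline and 12.3 FPKM without. The induced shEXOSC3 library was the highest of the 4 and the uninduced one the lowest, with a log2 ratio of 1.13 in shEXOSC3 and 0.09 in shNS.

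ZEB1-AS1, next to the transcription factor gene ZEB1, was at 2.34 FPKM in shEXOSC3 with doxycycline and 0.517 FPKM without, against 0.874 FPKM with and 0.577 FPKM without in shNS. Its log2 ratio was 1.14 on day 5 and 1.12 on day 7 in shEXOSC3. ZNF649-AS1, next to ZNF577, was at 2.79 FPKM with doxycycline and 0.86 FPKM without in shEXOSC3, against 1.4 FPKM with and 1.81 FPKM without in shNS. Its shEXOSC3 log2 ratio of 1.03 on day 5 was -0.32 on day 7. BOLA3-DT was at 4.13 FPKM with doxycycline and 1.64 FPKM without in shEXOSC3, with its neighbour BOLA3, an iron-sulfur cluster assembly factor, at 73.7 FPKM with doxycycline and 104 FPKM without. DIAPH3-AS1 had the largest ratio of the group, at 4.91 FPKM with doxycycline and 0.157 FPKM without, against 0.221 FPKM with and 0.351 FPKM without in shNS. Nearly all of it came from accession NR_051993, at 4.29 FPKM with doxycycline and listed at 0 without, and on day 7 the gene's log2 ratio was 0.04.

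**Figure D3:**
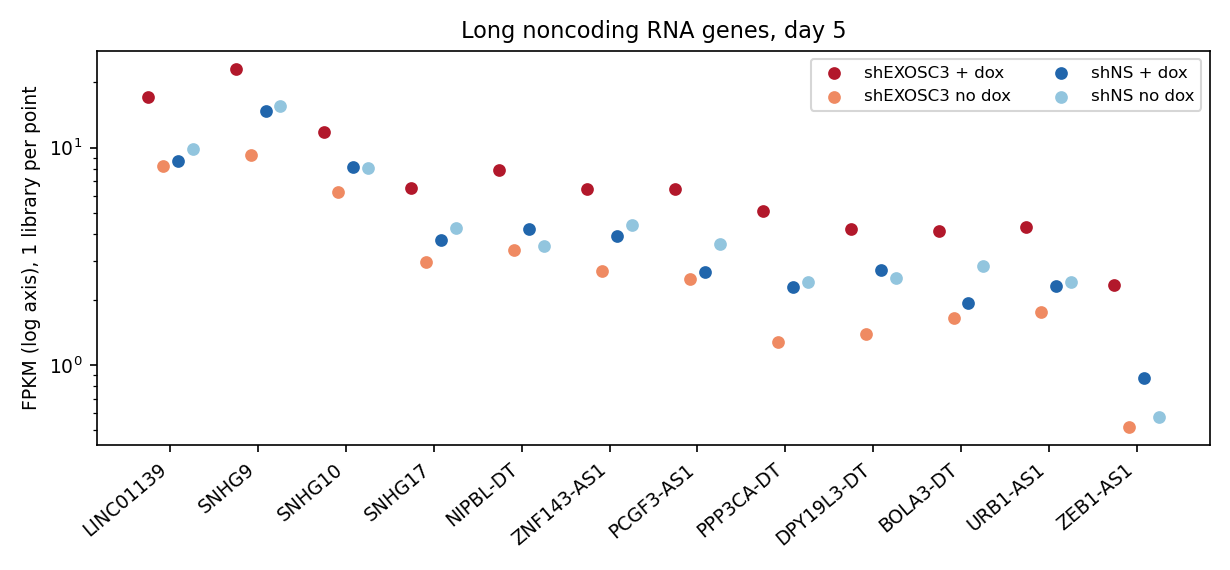
FPKM of 12 long noncoding RNA genes on a log axis on day 5, 1 point per library, in shEXOSC3 and shNS with and without doxycycline. The induced shEXOSC3 library is the highest of the 4 for each gene shown, from 2.34 FPKM for ZEB1-AS1 to 23.1 FPKM for SNHG9, and the uninduced shEXOSC3 library is the lowest. These genes were picked for display because of that.

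SNHG9, a host gene of a small nucleolar RNA at chr16:2014997-2015505 (hg19), was at 23.1 FPKM in shEXOSC3 with doxycycline and 9.3 FPKM without, against 14.7 FPKM with and 15.6 FPKM without in shNS. Its log2 ratio was 1.23 on day 5 and 0.90 on day 7 in shEXOSC3, against -0.08 and -0.94 in shNS. On day 7 SNHG9 was at 6.34 FPKM in induced shEXOSC3 and 6.89 FPKM in uninduced shNS. The uninduced shEXOSC3 library of day 5 held about 40 estimated fragments of it. SNHG10 was at 11.8 FPKM with doxycycline and 6.26 FPKM without in shEXOSC3, against 8.16 FPKM with and 8.09 FPKM without in shNS. SNHG6 was opposite, at 321 FPKM with doxycycline and 516 FPKM without in shEXOSC3. The 21 measured host genes were thus mixed, with 12 above 0, 9 below and a median of 0.10, which was -0.13 over those of at least 100 estimated fragments and -0.09 against induced shNS cells across tables. Of 9 microRNA host genes, 8 were above 0, with a median of 0.32 in shEXOSC3 and -0.15 in shNS, and 0 were past 2-fold. LINC01139 was at 17.1 FPKM in shEXOSC3 with doxycycline and 8.26 FPKM without, against 8.69 FPKM with and 9.9 FPKM without in shNS, and its log2 ratio of 0.97 on day 5 was 1.37 on day 7. PPP3CA-DT, beside the gene of a calcineurin subunit, was at 5.14 FPKM with doxycycline and 1.27 FPKM without in shEXOSC3, against 2.29 FPKM with and 2.4 FPKM without in shNS. LOC100129148 was at 4.32 FPKM in shEXOSC3 with doxycycline and listed at 0 without, against 1.47 FPKM with and 2.29 FPKM without in shNS.

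Counting only genes past 2-fold whose ratio also lay at least 1 log2 unit from that of shNS in the same direction left 22 higher and 14 lower genes. Among the higher coding genes, MYL9, the regulatory light chain of smooth muscle and nonmuscle myosin, was at 39.0 FPKM in shEXOSC3 with doxycycline and 15 FPKM without, against 16.9 FPKM with and 13.9 FPKM without in shNS. RHOBTB1 was at 4.62 FPKM with doxycycline and 1.43 FPKM without in shEXOSC3, against 1.62 FPKM with and 2.05 FPKM without in shNS. LSM10, a protein of the U7 particle that processes histone mRNA 3′ ends, was at 23.2 FPKM with doxycycline and 9.48 FPKM without in shEXOSC3, against 8.09 FPKM with and 9.25 FPKM without in shNS. For these genes the induced shEXOSC3 library was high and the other 3 lay close together. RHOBTB1 had a log2 ratio of 1.09 on day 7 in shEXOSC3, LSM10 0.53 and MYL9 0.31. The day 7 ratio of RHOBTB1 rests on 1.12 FPKM with doxycycline and a value listed at 0 without. TMEM88, an inhibitor of Wnt signalling at the membrane, was at 4.52 FPKM with doxycycline and 0.859 FPKM without in shEXOSC3, against 1.93 FPKM with and 1.41 FPKM without in shNS. Its day 7 log2 ratio in shEXOSC3 was 0.35. The zinc finger gene ZNF28 was at 6.1 FPKM with doxycycline and 0.841 FPKM without in shEXOSC3, against 3.37 FPKM with and 3.63 FPKM without in shNS. Uninduced shEXOSC3 was thus the lowest of these libraries, and the ZNF28 log2 ratio in shEXOSC3 was -0.82 on day 7. RPS16, a ribosomal protein gene, was at 853 FPKM in shEXOSC3 with doxycycline and 373 FPKM without, against 201 FPKM with and 329 FPKM without in shNS. Ribosomal protein genes have many processed pseudogenes, so their reads may be split, and the RPS16 log2 ratio of 1.19 on day 5 was -0.15 on day 7. The rest of the 15 largest of these ratios were those of GLIS2-AS1, LSP1P5, ZNF789 and the readthrough gene ANKHD1-EIF4EBP3, all at or under 6.65 FPKM with doxycycline.

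Of the 14 lower genes, EXOSC3 itself was one. FABP7, a fatty-acid binding protein of neural progenitors, was at 3.6 FPKM in shEXOSC3 with doxycycline and 13.0 FPKM without, against 7.77 FPKM with and 10.8 FPKM without in shNS. Its log2 ratio was -1.60 on day 5 and -1.07 on day 7 in shEXOSC3. CLC, the Charcot-Leyden crystal galectin, was at 15.6 FPKM with doxycycline and 42.1 FPKM without in shEXOSC3, against 36.8 FPKM with and 45.4 FPKM without in shNS. On day 7 its log2 ratio was -0.97 in shEXOSC3 and -1.06 in shNS. H1-6, a linker histone known from testis, was at 7.34 FPKM with doxycycline and 19.5 FPKM without in shEXOSC3, against 14.9 FPKM with and 15.1 FPKM without in shNS. The linker histone H1-1 was at 38.1 FPKM with doxycycline and 78.9 FPKM without in shEXOSC3, against 130 FPKM with and 87.9 FPKM without in shNS. On day 7 both histones were again low in shEXOSC3, with log2 ratios of -0.89 for H1-6 and -0.95 for H1-1. Another 8 lower genes, MGARP, AHSP, SEMG1, C6orf52, CFAP300, CA3, HLA-DRA and LOC101930071, were all under 10 FPKM in both shEXOSC3 libraries. The last, the readthrough gene IPO11-LRRC70, was listed at 0 with doxycycline and at 3.42 FPKM without in shEXOSC3, against 0.00133 FPKM with doxycycline and listed at 0 without in shNS.

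Several of the largest differences were present in both lines. VIM, the intermediate filament vimentin, was at 524 FPKM in shEXOSC3 with doxycycline and 88.8 FPKM without, 5.9-fold, and at 352 FPKM with doxycycline and 79.9 FPKM without in shNS. The log2 ratios were 2.55 in shEXOSC3 and 2.12 in shNS on day 5, and 2.28 and 1.54 on day 7. ANXA1, annexin A1, was at 49.1 FPKM with doxycycline and 15.5 FPKM without in shEXOSC3, against 36.9 FPKM with and 16.2 FPKM without in shNS. The ANXA1 difference belonged to day 5, since its day 7 log2 ratio in shEXOSC3 was 0.08. In all, 18 long genes were past 2-fold in the same direction in both lines, 10 higher and 8 lower. MYL7, an atrial myosin light chain, was at 9.86 FPKM with doxycycline and 2.04 FPKM without in shEXOSC3, against 8.2 FPKM with and 3.04 FPKM without in shNS. ENOX1 was at 3.86 FPKM with doxycycline and 0.0706 FPKM without in shEXOSC3, against 2.41 FPKM with and 0.0701 FPKM without in shNS. HHLA1 was at 0.456 FPKM with doxycycline and 4.21 FPKM without in shEXOSC3, against 0.97 FPKM with and 4.39 FPKM without in shNS. PHOSPHO2-KLHL23, H3-3A, GNG8 and DENND10P1, which share sequence with readthrough partners or near-identical copies or were at or near 0 in an induced library, were also among the largest at either end, with DPPA5.

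Among 31 measured genes of the ATF4 response, which raises amino acid synthesis and import, 3 were at least 2-fold higher and 28 were above 0 in shEXOSC3. All 31 were above 0 in shNS. The median was 0.62 in shEXOSC3 and 0.36 in shNS on day 5, and 0.47 and 0.46 on day 7. TRIB3, a pseudokinase induced by ATF4, was at 22.2 FPKM with doxycycline and 7.05 FPKM without in shEXOSC3, against 20.8 FPKM with and 7.47 FPKM without in shNS. SLC7A5, the large neutral amino acid transporter, was at 64.5 FPKM with doxycycline and 25.9 FPKM without in shEXOSC3, against 45.6 FPKM with and 35.3 FPKM without in shNS. PSAT1, of serine synthesis, was at 168 FPKM with doxycycline and 82.4 FPKM without in shEXOSC3, against 116 FPKM with and 92.2 FPKM without in shNS. ASNS, asparagine synthetase, had nearly the same ratio in both lines, 0.74 in shEXOSC3 and 0.70 in shNS. ATF4 RNA was at 404 FPKM with doxycycline and 446 FPKM without in shEXOSC3, against 450 FPKM with and 381 FPKM without in shNS. With the shNS ratio subtracted, the median of the list was 0.17.

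Of 25 p53 targets, 0 were past 2-fold, 19 were above 0 in shEXOSC3 and 7 in shNS. The medians were 0.24 in shEXOSC3 and -0.10 in shNS on day 5, and 0.34 and -0.19 on day 7. CDKN1A, the cell cycle inhibitor p21, was at 37.4 FPKM with doxycycline and 29.3 FPKM without in shEXOSC3, against 19.6 FPKM with and 27.0 FPKM without in shNS. Its log2 ratios were 0.34 in shEXOSC3 and -0.44 in shNS on day 5, and 0.68 and -0.53 on day 7. XPC, of nucleotide excision repair, was at 12.9 FPKM with doxycycline and 7.51 FPKM without in shEXOSC3, against 8.69 FPKM with and 10.4 FPKM without in shNS. SESN2 and GADD45A, stress genes of which SESN2 is also in the ATF4 list, both lay above 0, SESN2 at 0.85 in shEXOSC3 and 0.40 in shNS and GADD45A at 0.71 and 0.17. DDB2 and CCNG1, at the other end, had log2 ratios of -0.40 and -0.35 in shEXOSC3.

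Genes of the actin cytoskeleton and targets of SRF and YAP lay higher in both lines. Of 30, 26 were above 0 in shEXOSC3 and 25 in shNS, with medians of 0.30 and 0.21, and 4 were at least 2-fold higher in shEXOSC3. FLNC, filamin C, was at 22.0 FPKM with doxycycline and 6.6 FPKM without in shEXOSC3, against 11.2 FPKM with and 6.21 FPKM without in shNS. ACTG2, a smooth muscle actin, was at 6.96 FPKM with doxycycline and 2.02 FPKM without in shEXOSC3, against 6.2 FPKM with and 2.93 FPKM without in shNS. On day 7 the median of the list in shEXOSC3 was -0.03, with FLNC at 0.25. Of 28 matrix and basement membrane genes, 22 were above 0 in shEXOSC3 and 15 in shNS, with medians of 0.24 and 0.04. HSPG2, perlecan, was at 7.22 FPKM with doxycycline and 2.62 FPKM without in shEXOSC3, against 3.39 FPKM with and 2.51 FPKM without in shNS. COL1A1, a fibroblast collagen, was at 9.11 FPKM with doxycycline and 4.52 FPKM without in shEXOSC3, against 3.87 FPKM with and 5.34 FPKM without in shNS. On day 7 its log2 ratio in shEXOSC3 was -0.31. COL1A1 is among the fibroblast markers whose sum is given above, and the part of other cells in these values was not tested.

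Of 28 measured pluripotency genes, 22 were below 0 in shEXOSC3 and 24 in shNS, with medians of -0.26 and -0.24, and 2 were at least 2-fold lower in shEXOSC3. Of the core factors, POU5F1 and NANOG were close to level. POU5F1 was at 151 FPKM with doxycycline and 164 FPKM without in shEXOSC3, against 162 FPKM with and 165 FPKM without in shNS. NANOG was at 19.4 FPKM with doxycycline and 18.8 FPKM without in shEXOSC3, against 18.8 FPKM with and 21.0 FPKM without in shNS. SOX2 was lower, at 172 FPKM with doxycycline and 253 FPKM without in shEXOSC3, against 184 FPKM with and 214 FPKM without in shNS. DNMT3B, a de novo DNA methyltransferase, was at 362 FPKM with doxycycline and 578 FPKM without in shEXOSC3, against 447 FPKM with and 548 FPKM without in shNS. DPPA5 was at 1.38 FPKM with doxycycline and 7.18 FPKM without in shEXOSC3, against 2.3 FPKM with and 6.56 FPKM without in shNS. DPPA2 was at 11.7 FPKM with doxycycline and 24.8 FPKM without in shEXOSC3, against 13.4 FPKM with and 20.7 FPKM without in shNS. For SOX2, DNMT3B and DPPA2 the ratio had the same sign in both lines and was larger in shEXOSC3. Subtracting the shNS ratio left a median of -0.092 for the list. LINC00458, a noncoding RNA of embryonic stem cells, was at 101 FPKM with doxycycline and 210 FPKM without in shEXOSC3, against 120 FPKM with and 199 FPKM without in shNS.

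Lineage genes were mostly below 1 FPKM. Measured were 2 of 20 mesendoderm and primitive streak genes, 5 of 16 definitive endoderm genes, 4 of 17 mesoderm genes, 7 of 23 neuroectoderm genes and 4 of 18 trophectoderm and amnion genes. In the last list KRT8 and KRT18 were left out for a failed or too deep estimate, not for a low level. FOXH1, the SMAD partner of nodal signalling, was at 23.2 FPKM with doxycycline and 15 FPKM without in shEXOSC3, against 14.8 FPKM with and 16.2 FPKM without in shNS. NODAL was at 2.01 FPKM with doxycycline and 1.26 FPKM without in shEXOSC3, against 1.68 FPKM with and 1.26 FPKM without in shNS. Of these 22 genes, FABP7 alone was past 2-fold, on the lower side, while 5 of the 7 neuroectoderm genes were above 0.

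**Figure D4:**
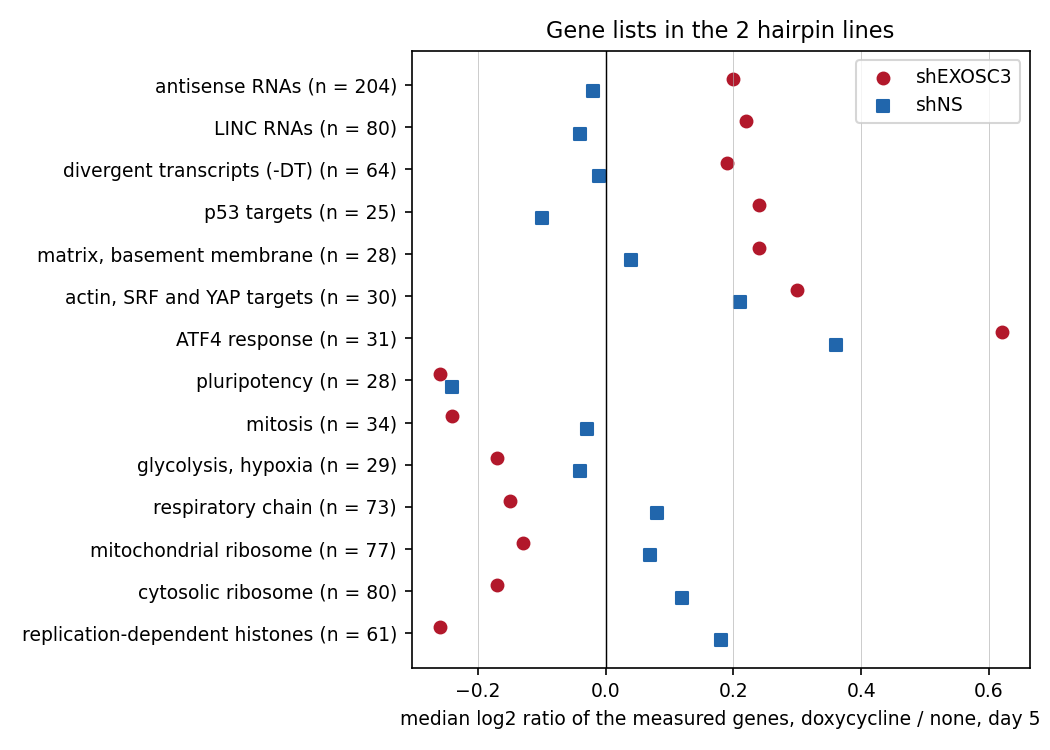
Median log2 ratio of doxycycline over none on day 5 for 14 gene lists and RNA classes, shEXOSC3 as circles above and shNS as squares below in each row. The noncoding classes and p53 targets lie above 0 only in shEXOSC3, the ATF4 list lies at 0.62 in shEXOSC3 and 0.36 in shNS, and the histone, ribosome and respiratory chain lists lie below 0 in shEXOSC3 and above 0 in shNS.

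On day 5 the medians of abundant housekeeping genes lay slightly below 0 in shEXOSC3 and slightly above 0 in shNS, while on day 7 they lay below 0 in both lines. Of 80 cytosolic ribosomal protein genes, 58 were below 0 in shEXOSC3 and 15 in shNS, with medians of -0.17 and 0.12. Of 77 mitochondrial ribosomal protein genes, 57 were below 0 in shEXOSC3 and 19 in shNS, with medians of -0.13 and 0.07. Of 73 respiratory chain genes, 59 were below 0 in shEXOSC3 and 17 in shNS, with medians of -0.15 and 0.08. RPS25 was the lowest ribosomal protein gene, at 1475 FPKM with doxycycline and 2591 FPKM without in shEXOSC3, against 1704 FPKM with and 1531 FPKM without in shNS. COX7B, of cytochrome c oxidase, was at 395 FPKM with doxycycline and 598 FPKM without in shEXOSC3, against 482 FPKM with and 491 FPKM without in shNS. The day 7 medians were -0.15 in shEXOSC3 and -0.18 in shNS for the cytosolic ribosome, -0.11 in shEXOSC3 and -0.16 in shNS for the mitochondrial ribosome, and -0.09 in shEXOSC3 and -0.16 in shNS for the respiratory chain. Without the 3 most abundant genes in the total, the day 5 medians in shEXOSC3 were -0.039 for the cytosolic ribosome and -0.019 for the respiratory chain, again below that of all long genes, which was then 0.117.

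Replication-dependent histone genes, whose mRNAs lack poly(A) tails, had day 5 medians on opposite sides of 0 in the lines. Of 61, 48 were below 0 in shEXOSC3 and 7 in shNS, with medians of -0.26 and 0.18, and 2 were at least 2-fold lower in shEXOSC3. H2BC3 was at 25.7 FPKM with doxycycline and 50.8 FPKM without in shEXOSC3, against 45.0 FPKM with and 40.2 FPKM without in shNS. H3C13, at the other end, was at 107 FPKM with doxycycline and 77.4 FPKM without in shEXOSC3. On day 7 the median was -0.05 in shEXOSC3 and -0.11 in shNS. Histone genes are near-identical copies, so values of single members are uncertain.

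On day 5 the ratio also ran with transcript length and level, in opposite directions in the lines. Coding genes up to 1 kb had a median of -0.12 in shEXOSC3 and 0.07 in shNS, and those over 4 kb 0.04 in shEXOSC3 and -0.02 in shNS. Coding genes of at least 100 FPKM had a median of -0.16 in shEXOSC3 and 0.08 in shNS, and 183 of 780 were above 0 in shEXOSC3. On day 7 both lines ran the same way: the median up to 1 kb was -0.08 in shEXOSC3 and -0.12 in shNS, that over 4 kb 0.03 in shEXOSC3 and 0.05 in shNS, and that of at least 100 FPKM -0.13 in shEXOSC3 and -0.11 in shNS. Within genes up to 1 kb the medians in shEXOSC3 were -0.27 for 48 histone genes, -0.18 for 42 respiratory chain genes and -0.16 for 48 ribosomal protein genes, against -0.09 for 645 other coding genes. The part of length and level in the list medians was not tested beyond this.

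**Figure D5:**
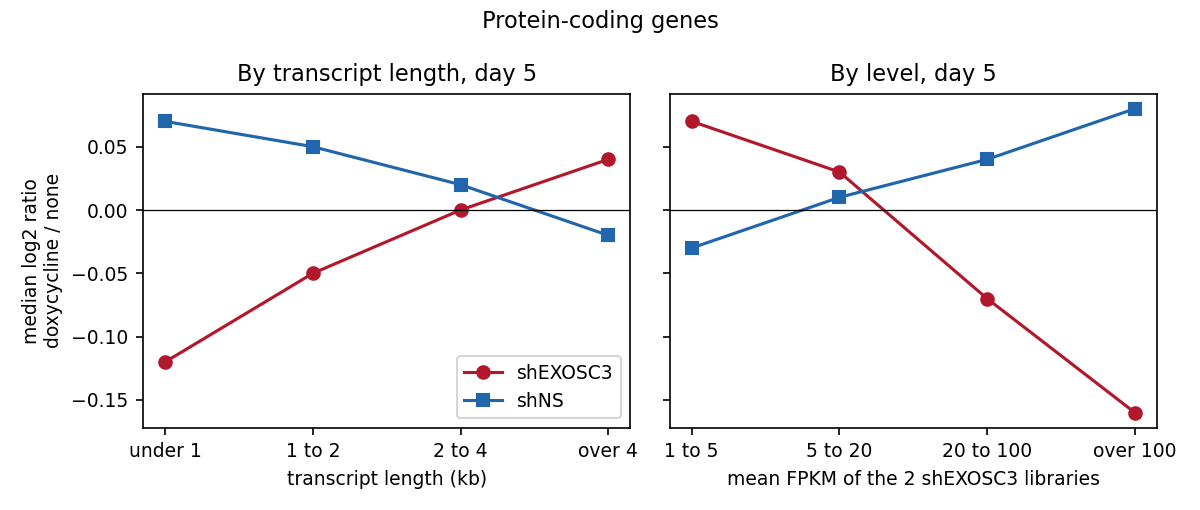
Median log2 ratio of doxycycline over none on day 5 for coding genes by transcript length in kb (left) and by mean FPKM of the shEXOSC3 pair (right), shEXOSC3 as circles and shNS as squares. In shEXOSC3 the median runs from -0.12 to 0.04 with length and from 0.07 to -0.16 with level, and in shNS both trends are opposite.

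Of 34 mitosis genes, 26 were below 0 in shEXOSC3 and 22 in shNS, with medians of -0.24 and -0.03 and 0 past 2-fold. BUB1, a spindle checkpoint kinase, was at 55.9 FPKM with doxycycline and 78.6 FPKM without in shEXOSC3, against 61.3 FPKM with and 65.6 FPKM without in shNS. PLK1, a mitotic kinase, was the highest, at 33.0 FPKM with doxycycline and 24.0 FPKM without in shEXOSC3. DNA replication genes were centred on 0, with 18 of 37 above. Of 29 glycolysis and hypoxia genes, 23 were below 0 in shEXOSC3 and 17 in shNS, with medians of -0.17 and -0.04. LDHA, lactate dehydrogenase A, was at 326 FPKM with doxycycline and 675 FPKM without in shEXOSC3, against 374 FPKM with and 522 FPKM without in shNS. In shEXOSC3 its most abundant coding transcript was at 217 FPKM with doxycycline and 342 FPKM without, and a noncoding transcript at 90.1 and 286 FPKM. The size of the LDHA difference thus depends on how shared reads were divided between transcripts. On day 7 the LDHA log2 ratio was -0.37 in shEXOSC3 and -0.45 in shNS. BNIP3, a mitophagy receptor induced by hypoxia, was at 51.9 FPKM with doxycycline and 89.9 FPKM without in shEXOSC3, against 73.6 FPKM with and 85.1 FPKM without in shNS. GAPDH was at 3384 FPKM with doxycycline and 3945 FPKM without in shEXOSC3.

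Of 18 heat shock genes, 16 were below 0 in shEXOSC3 and 12 in shNS, with medians of -0.14 and -0.04. Their day 7 medians were -0.28 in shEXOSC3 and -0.21 in shNS. HSPA8, the constitutive HSP70, was at 879 FPKM with doxycycline and 1240 FPKM without in shEXOSC3, against 1049 FPKM with and 987 FPKM without in shNS. Of 7 metallothionein genes, a list added after their values were seen, 6 were below 0, with medians of -0.75 in shEXOSC3 and -0.17 in shNS on day 5 and -1.01 in shEXOSC3 and -0.67 in shNS on day 7. Against induced shNS cells across tables the day 5 median was 0.19. MT1X was at 65.0 FPKM with doxycycline and 149 FPKM without in shEXOSC3, against 73.8 FPKM with and 121 FPKM without in shNS. Interferon response genes (8 of 17 above 0), unfolded protein response genes (12 of 21) and cholesterol and fatty acid genes (12 of 28) had 0 members past 2-fold and medians of -0.02, 0.05 and -0.02. Of 40 ribosome biogenesis genes, 26 were below 0, with a median of -0.11 and 0 past 2-fold. Of 401 zinc finger genes, 200 were above 0 and 201 below, with 2 at least 2-fold higher.

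Short RNAs, which the exosome trims, could be read only in part. Entries were kept by their mean over the shEXOSC3 pair. An entry seen in only 1 shEXOSC3 library could therefore pass, while one seen only in shNS could not. The counts of the lines that follow are thus not like for like. Of 269 short entries, 97 (36.1%) were higher and 52 (19.3%) lower by 2-fold or more in shEXOSC3, against 32 (11.9%) and 33 (12.3%) in shNS. Many of these ratios rest on an entry listed at 0 in 1 library of the pair: 82.4% of microRNA genes, 45.3% of C/D box and 18.1% of H/ACA box small nucleolar RNAs, against 0.024% of long genes. Among entries above 0 in both libraries, 68 H/ACA box RNAs had a median of 0.31 in shEXOSC3 and -0.03 in shNS, with 11 at least 2-fold higher and 4 lower. Against induced shNS cells across tables, the medians over all measured entries were -0.68 for H/ACA box, -0.31 for C/D box and -0.37 for Cajal body RNAs, where within the shEXOSC3 pair they were 0.31, 0.13 and 0.20. The 35 such C/D box RNAs had a median of -0.01 in shEXOSC3 and -0.28 in shNS, with 0 higher and 5 lower. SCARNA15, of the Cajal body, was at 41.9 FPKM with doxycycline and 7.87 FPKM without in shEXOSC3, against 6.47 FPKM with and 12.5 FPKM without in shNS. On day 7 it was listed at 0 with doxycycline and at 6.71 FPKM without in shEXOSC3, a log2 ratio of -2.95. Both shNS libraries of day 7 also listed it at 0. RMRP, the RNA of RNase MRP, was at 87126 FPKM with doxycycline and 107537 FPKM without in shEXOSC3, against 113113 FPKM with and 115224 FPKM without in shNS. Small nucleolar RNAs lie within host introns, so their reads may include host precursor.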

How the data were processed

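Per the labels' protocols, Ribo-Zero removed ribosomal RNA from Trizol-extracted total RNA, and libraries were prepared by ScriptSeq v2. Spike-ins named in the labels are not used here. The submitters' processing notes name CASAVA 1.8, TopHat, Cufflinks and hg19, but the strand setting, normalization option and annotation are not stated there. The authors deposited FPKM in Cuffdiff's layout, per the file headers, 1 entry for each of 49235 RefSeq transcripts, with the authors' p-value and q-value for 1 library against 1 library.

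Accessions were given symbols from a RefSeq table of GRCh38.p14, used for names and neighbours only; 97.8% matched. FPKM were summed per symbol, and 28 symbols with a failed or too deep estimate on day 5, KRT8, KRT18 and HSP90AB1 among them, were left out. Loci are those of the tables on hg19, with 1-based starts, and can span overlapping genes. Ratios used a pseudocount of 1 FPKM and a minimum mean of 1 FPKM over the shEXOSC3 pair. Fragments were estimated from the spacing of low FPKM and transcript lengths of GENCODE 29, so they are approximate and carry no interval. No p-value was computed, since each group has 1 library.

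Members and lists were chosen with earlier results of these data known, and the divergent class, the head-to-head grouping and the metallothionein list were set after values were seen. Named genes were EXOSC3 and the exosome subunits, the 15 highest and 15 lowest long genes past 2-fold that also differed from shNS by 1 log2 unit, the 5 largest each way of at least 20 FPKM, up to 3 at each end of each list, POU5F1, NANOG, SOX2, FOXH1 and CDKN1A, and the 5 largest each way in both lines. Of the genes named by this rule, 1 is not reported here. Other genes printed were chosen after their values were seen. Alternatives varied the pseudocount, the minimum, the accession used, the scaling and the comparison. Analyses used Python 3.11.15 with pandas 2.3.3 and numpy 2.4.6.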

Additional observations from a re-analysis of the deposited data

Results flagged for a closer look

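Some medians and genes had opposite signs in the lines on day 5, and the difference between the lines was not tested. Exosome subunits had a median log2 ratio of -0.15 in shEXOSC3 and 0.11 in shNS. All coding genes of 20 to 100 FPKM had -0.07 in shEXOSC3 and 0.04 in shNS. The p53 targets had 0.24 in shEXOSC3 and -0.10 in shNS. Replication-dependent histones had -0.26 in shEXOSC3 and 0.18 in shNS. Cytosolic ribosomal protein genes had -0.17 in shEXOSC3 and 0.12 in shNS. All coding genes of at least 100 FPKM were close to this, with -0.16 in shEXOSC3 and 0.08 in shNS. GLIS2-AS1 had 1.37 in shEXOSC3 and -0.86 in shNS, with FPKM of at most 2.53 in these libraries. RPS16 had 1.19 in shEXOSC3 and -0.71 in shNS. H1-1 had -1.03 in shEXOSC3 and 0.56 in shNS.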

How the results depend on the processing

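No paired analysis was possible because the labels give no replicate numbers that groups share, and the day 5 comparison is 1 library against 1. The count of higher genes against that of lower genes, 78 and 45, was 165 and 114 with a pseudocount of 0.1 FPKM, 13 and 8 with 5 FPKM, 33 and 22 with a minimum of 5 FPKM, 249 and 184 with the single accession of the highest mean, 38 and 16 against induced shNS cells across tables, and 41 and 25 with at least 100 estimated fragments. With the shNS ratio subtracted it was 52 and 24. The EXOSC3 log2 ratio was -0.89 with a pseudocount of 5 FPKM and -0.96 scaled to total FPKM without the 3 most abundant genes. The LINC median was 0.012 with no minimum and 0.012 with a minimum of 5 FPKM. The ATF4 median was 0.46 with a pseudocount of 5 FPKM. With the shNS ratio subtracted, medians were 0.17 for ATF4, -0.092 for pluripotency and -0.44 for histones. Across tables they were 0.087 for ATF4, -0.10 for pluripotency, 0.41 for p53 targets and -0.08 for mitosis. Signs turned for neuroectoderm with no minimum (-0.001), ribosome biogenesis without the 3 most abundant genes (0.02, where all long genes had 0.117), mesoderm (0.13) and pluripotency noncoding RNAs (0.077) with shNS subtracted, and microRNA genes with at least 100 fragments (-0.009). Across tables they turned for mesoderm (0.22), metallothioneins (0.19), C/D box (-0.31), H/ACA box (-0.68) and Cajal body RNAs (-0.37), and H3-3A (0.001). Of medians under 0.10 in size, those of small nucleolar RNA hosts (-0.13 with at least 100 fragments, -0.09 across tables), small nuclear RNAs (-0.53 and -0.85 likewise) and trophectoderm (-0.18 with the single accession) turned and moved by over 0.15, and there were 24 further turns with a smaller move. The causes were not tested. At about 15800000 fragments per library, many noncoding genes rest on under 100 fragments. The fragment minimum and the minimum over the 4 day 5 libraries were added after seeing the data.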
